A study of Mus musculus with 27 samples.

Results

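The 10 genes described here code for inflammatory signals that fibroblasts are known to make. They are the CC chemokines Ccl2, Ccl7 and Ccl5, the CXC chemokines Cxcl1, Cxcl5, Cxcl10 and Cxcl12, the cytokine gene Il6, the growth factor gene Csf1 and the prostaglandin enzyme gene Ptgs2. They were picked by symbol, without a threshold on their values, though earlier results of these data were known. All 10 were found among the 37310 genes of the expected count table. Mouse embryonic fibroblasts (MEFs) were profiled by RNA-seq in 4 groups of 3 libraries: female wild-type, female Firre KO, male wild-type and male Firre KO. Firre is a long noncoding RNA gene on chromosome X, and the KO cells carry a germline deletion, made by recombination between loxP sites, that removes the whole locus. According to the study's methods, the cells of every group are primary cultures from mid-gestation embryos whose viscera, head and limbs had been removed, each line came from a single embryo, and experiments began from thawed frozen stocks. Neither the labels nor the methods say whether the replicates of a group are separate embryos. The p-values below therefore measure the spread between these libraries, which may be technical. Neither sex nor genotype can be told apart from the embryo, since wild-type and KO cells come from different embryos. In what follows, a line stands for the wild-type and KO libraries of the same sex, and not for a single embryo.

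Chemokines are small secreted proteins that guide migrating leukocytes through G protein-coupled receptors, and their family names (CC, CXC) describe the spacing of conserved cysteines. Resting fibroblasts secrete Cxcl12 and Csf1 constitutively, whereas Ccl2, Ccl7, Cxcl1, Cxcl5 and Il6 are classical targets of NF-kB that cytokines such as interleukin 1 or tumour necrosis factor induce, and Cxcl10 and Ccl5 respond to interferon. Ptgs2 (COX-2) makes the prostaglandin precursor from arachidonic acid and is an immediate early gene that serum induces in fibroblasts.

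Sequencing was deeper for male MEFs (51521907 to 65454660 expected counts in a library) than for female MEFs (42986516 to 51481034), without overlap. The genotype labels held in each library: Firre (annotated as 6720401G13Rik) had 90 to 129 counts in wild-type female MEFs, 239 to 307 in wild-type male MEFs and 0 in each of the 6 KO libraries. Replicate 3 of the male wild-type group and replicate 3 of the male KO group stood apart from their groups, with a chi-square per degree of freedom of 37.82 to 45.1 against the other 2 replicates, compared with 7.548 to 16.57 for the other pairs of replicates. All 12 fibroblast markers were tested, and their summed level was 16500 to 20300 CPM in the female libraries and 19400 to 24600 CPM in the male libraries, where CPM are counts scaled to the size of each library after TMM normalization. Macrophage and leukocyte markers summed to 50.6 to 155 CPM in the female libraries and to 9.92 to 20.9 CPM in the male libraries. None of the 13 markers of that list was at 0 in all libraries of a group.

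Of the 10 genes, 6 have a promoter in the RefSeq table for the mouse build GRCm38.p6 (Cxcl1, Cxcl10, Cxcl12, Il6, Csf1 and Ptgs2). Each entry holds 250 bases before the start of the gene and 50 bases after it. The other 4 genes (Ccl2, Ccl7, Ccl5 and Cxcl5) have no entry there. The promoters of Il6, Cxcl1 and Cxcl10 are shown because these genes belong to the inducible class and because the correlations of Il6 and Cxcl1 with Ccl2 are described further on, none of which passed the correction for the number of pairs. Capitals mark matches to the NF-kB consensus on either strand, and where matches overlap the whole stretch is in capitals. The expression files use the older build mm9, so these coordinates are not those given further on.
Il6 (chr5:30012864-30013163, plus strand): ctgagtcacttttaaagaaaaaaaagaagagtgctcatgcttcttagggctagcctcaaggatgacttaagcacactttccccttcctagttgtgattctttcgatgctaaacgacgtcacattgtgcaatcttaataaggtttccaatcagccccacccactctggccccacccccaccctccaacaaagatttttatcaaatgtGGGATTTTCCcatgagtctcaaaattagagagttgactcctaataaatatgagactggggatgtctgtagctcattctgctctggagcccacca
Cxcl1 (chr5:90890995-90891294, plus strand): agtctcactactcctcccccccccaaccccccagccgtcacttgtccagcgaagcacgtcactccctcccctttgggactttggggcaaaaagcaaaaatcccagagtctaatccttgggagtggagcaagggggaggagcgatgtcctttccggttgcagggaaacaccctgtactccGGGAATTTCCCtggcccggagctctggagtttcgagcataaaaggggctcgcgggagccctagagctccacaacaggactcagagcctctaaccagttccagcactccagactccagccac
Cxcl10 (chr5:92348840-92349139, minus strand): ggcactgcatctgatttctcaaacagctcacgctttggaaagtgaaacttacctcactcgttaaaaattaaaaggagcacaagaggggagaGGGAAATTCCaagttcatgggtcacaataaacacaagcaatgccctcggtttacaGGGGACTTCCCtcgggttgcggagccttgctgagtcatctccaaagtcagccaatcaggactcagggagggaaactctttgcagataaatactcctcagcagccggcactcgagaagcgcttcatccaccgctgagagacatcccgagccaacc

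The Il6 promoter holds 1 match, which begins 44 bases before the start of the gene. The Cxcl1 promoter has a stretch that begins 71 bases before the start and matches on both strands. In the Cxcl10 promoter 1 match begins 159 bases before the start, and a second stretch, in which 3 matches overlap, begins 104 bases before it. The Csf1 promoter also holds a match, 154 bases before the start, so the consensus occurs in 4 of the 6 promoters, compared with 8.46% of the 32851 promoters in the table. Further motifs were searched on both strands. The AP-1 motif TGANTCA occurs in the promoters of Il6 and Cxcl10 and in 7.81% of all promoters. The C/EBP motif TTNNGNAA was found for Il6, Cxcl10 and Ptgs2 and in 40.7% of all promoters. The interferon-stimulated response element was found only for Cxcl10 among the 6, and in 3.44% of all promoters. Where AP-1 or C/EBP letters read the same on both strands, a match on both was counted once. These matches describe the letters in the windows and are not binding sites.

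The 10 genes differed widely in level. Per kb of merged exon, and averaged over the 12 libraries, Ptgs2 was the highest at 277 CPM per kb, above 98.8% of the 15387 genes that passed the filter on low counts. Csf1 followed at 131 CPM per kb (above 97.4%) and Cxcl12 at 37.9 (above 90.6%). Ccl7 (10.3 CPM per kb) and Ccl2 (9.35) lay in the middle, and the ranges of these 2 genes over the libraries overlapped. Il6 (1.56), Cxcl1 (1.01), Cxcl5 (0.404), Cxcl10 (0.368) and Ccl5 (0.161 CPM per kb) were low, and neighbours in this order overlapped in range over the libraries. The constitutive signals Csf1 and Cxcl12 and the serum-responsive Ptgs2 were the abundant members in these cultures, and the highest library exceeded the lowest by 1.39 times for Ptgs2, by 1.97 times for Csf1 and by 2.42 times for Cxcl12. Of the low members, Il6 had the widest range, with 6.79 times between its extreme libraries, apart from Cxcl5, which had 0 counts in 1 library. Ccl5 was the 1 member that did not pass the filter, so 9 of the 10 genes were tested. The deposited counts of all 10 genes were whole numbers in 12 of 12 libraries.

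**Figure D1:**
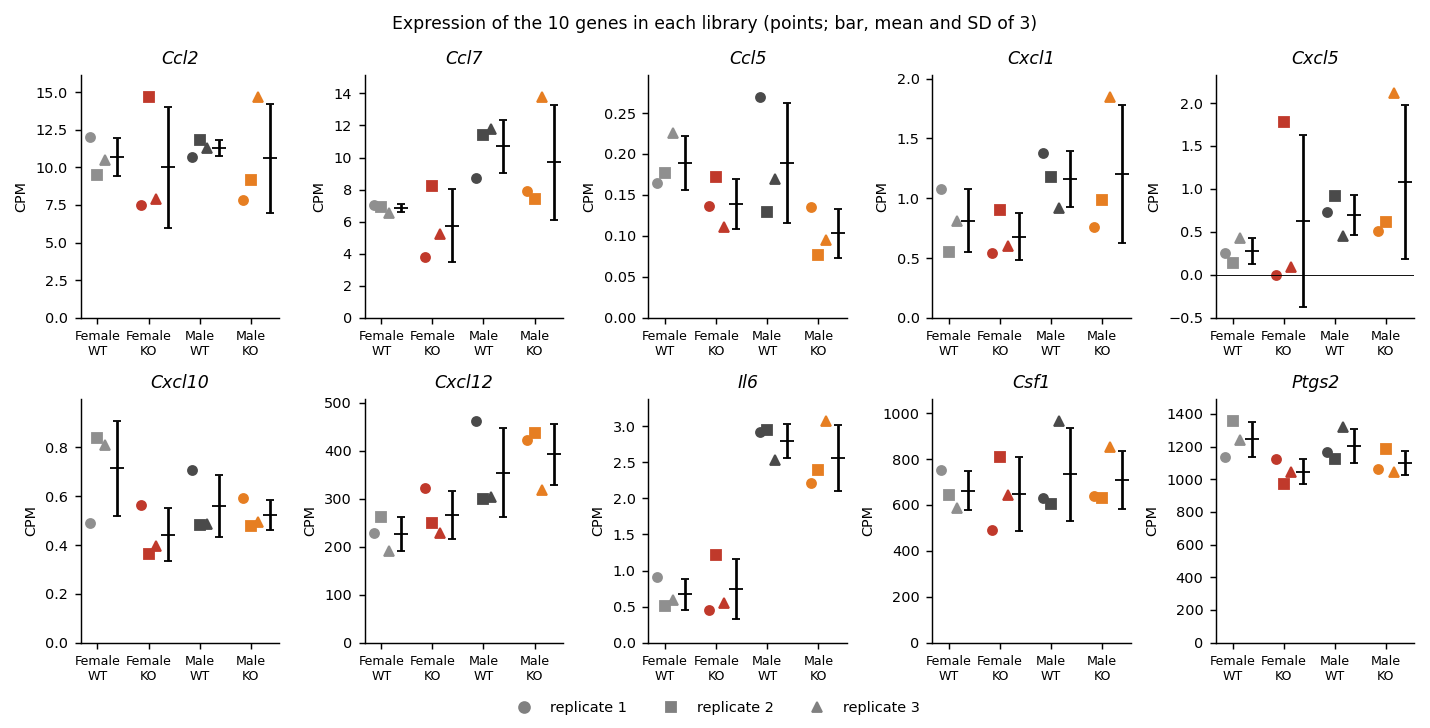
Expression of the 10 genes in CPM (vertical axes, linear, one panel per gene) in the 3 libraries of each sex and genotype. Points are libraries, with the marker shape giving the replicate number, and bars show the mean and SD of 3. Il6 lies between 0.453 and 1.22 CPM in the 6 female libraries and between 2.22 and 3.07 CPM in the 6 male libraries, whereas wild-type and KO points of one sex overlap in every panel except that of Ptgs2 in female MEFs.

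The CC chemokines Ccl2 and Ccl7 attract monocytes through the receptor Ccr2. On mm9, Ccl2 (ENSMUSG00000035385.5) lies on chromosome 11 from 81849073 to 81850955 and Ccl7 (ENSMUSG00000035373.2) from 81859214 to 81861027, both on the plus strand, 8258 bases apart, with 0 annotated genes wholly between them. Ccl2 had 12, 9.48 and 10.5 CPM in the 3 wild-type female libraries and 7.52, 14.7 and 7.92 CPM in the female KO libraries. In male MEFs it had 10.7, 11.8 and 11.3 CPM in the wild type and 7.85, 9.15 and 14.7 CPM in the KO. In both sexes 2 KO libraries were below all wild-type libraries of that sex and the remaining KO library was above them, so the groups overlapped. The log2 fold change of Ccl2, KO against wild type, was -0.09 in female MEFs (SE 0.27) and -0.09 in male MEFs (SE 0.26). Ccl2 overlaps Gm17268, a gene model on the opposite strand whose exons total 66 bases, and the sources used here do not say that the counting used strand.

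Ccl7 had 7.06, 6.92 and 6.57 CPM in wild-type female MEFs and 3.8, 8.23 and 5.2 CPM in the female KO libraries. The male values were 8.74, 11.4 and 11.8 CPM in the wild type and 7.89, 7.39 and 13.8 CPM in the KO. As for Ccl2, the highest value of each sex was in a KO library, replicate 2 in female and replicate 3 in male MEFs. Its log2 fold change between KO and wild type was -0.25 (SE 0.29) in female MEFs and -0.14 (SE 0.27) in male MEFs. Each female wild-type library was below each male wild-type library, with a log2 fold change of -0.64 (SE 0.28), but the adjusted p was 0.0918 (quasi-likelihood test of edgeR, adjusted over 15387 genes by Benjamini-Hochberg), and that between the KO groups was 0.0548.

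Ccl5, which attracts T cells and monocytes (ENSMUSG00000035042.2, chromosome 11 from 83339280 to 83344020, minus strand), was at the edge of detection, with 5 to 16 counts per library. Wild-type female MEFs had 7, 8 and 12 counts, female KO MEFs 6, 8 and 5, wild-type male MEFs 16, 8 and 9, and male KO MEFs 8, 5 and 5. KO and wild type overlapped in both sexes, and the exact permutation test on log2(CPM + 1) gave a two-sided p of 0.20 in each, where 3 libraries against 3 allow no p below 0.10, so this test could not have separated the groups.

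Cxcl1 and Cxcl5 attract neutrophils through Cxcr2. Both lie on chromosome 5 of mm9 on the plus strand, Cxcl5 (ENSMUSG00000029371.5) from 91188325 to 91190651 and Cxcl1 (ENSMUSG00000029380.10) from 91320267 to 91322141, with 5 annotated genes between them. Cxcl1 had 1.08, 0.552 and 0.81 CPM in wild-type female MEFs and 0.544, 0.901 and 0.597 CPM in the female KO libraries. In male MEFs the values were 1.38, 1.18 and 0.919 CPM in the wild type and 0.762, 0.987 and 1.85 CPM in the KO. Wild-type and KO libraries overlapped in both sexes, and the log2 fold changes were -0.25 (SE 0.37) and 0.04 (SE 0.35).

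Cxcl5 was the least even of the tested members. Its counts were 11, 6 and 23 in wild-type female MEFs and 0, 83 and 4 in female KO MEFs. In male MEFs they were 43, 57 and 24 for the wild type and 30, 40 and 111 for the KO. The count of 0 allows up to 3 counts, or 0.0683 CPM, a limit that covers counting error only. The coefficient of variation within a group was up to 161%, so that the log2 fold change of 1.17 in female MEFs had an SE of 1.15, and that of 0.61 in male MEFs an SE of 1.00. A single KO library decided the sign in each sex: without replicate 2 of the female KO the female value was -2.58, and without replicate 3 of the male KO the male value was -0.32.

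Cxcl10 attracts T cells through Cxcr3, and Cxcl12 acts on Cxcr4 and retains blood progenitors in their niche. Cxcl10 (ENSMUSG00000034855.7, chromosome 5 from 92775664 to 92777915, minus strand) had 0.491, 0.84 and 0.81 CPM in wild-type female MEFs and 0.566, 0.365 and 0.398 CPM in the female KO libraries. In male MEFs it had 0.709, 0.484 and 0.487 CPM in the wild type and 0.592, 0.478 and 0.496 CPM in the KO. The wild-type replicate 1 lay among the female KO libraries, and the log2 fold change in female MEFs, -0.69 (SE 0.28), had an unadjusted p of 0.0315 and an adjusted p of 0.613 in edgeR. The male value was -0.10 (SE 0.27), and the effect of the KO differed between the sexes by -0.59 (SE 0.39, adjusted p = 1.00 in edgeR). Cxcl10 lies inside Art3, a gene on the opposite strand, so its reads are uncertain in the same way as those of Ccl2.

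Cxcl12 (ENSMUSG00000061353.5, chromosome 6 from 117118553 to 117131385, plus strand) had 228, 261 and 190 CPM in wild-type female MEFs and 322, 249 and 228 CPM in the female KO libraries. Male wild-type libraries had 461, 299 and 303 CPM and male KO libraries 422, 436 and 318 CPM. KO and wild type overlapped in both sexes (log2 fold change 0.23 with SE 0.20 in female MEFs, and 0.14 with SE 0.19 in male MEFs). Among wild-type libraries all female values were below all male values, with a log2 fold change of -0.65 (SE 0.20). The KO groups differed by -0.56 (SE 0.20) and overlapped in 1 pair of libraries, 322 CPM in a female against 318 CPM in a male library. The adjusted p in edgeR was 0.0231 and 0.0426, so that Cxcl12 passed neither the limit of 0.01 nor the limit of 1 on the log2 scale.

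Il6 codes for interleukin 6, which signals through Il6st, and it showed the largest difference between the lines among the 9 genes tested. The gene (ENSMUSG00000025746.7) lies on chromosome 5 of mm9 from 30339701 to 30346508 on the plus strand. The female wild-type libraries had 39, 23 and 31 counts (0.912, 0.508 and 0.584 CPM) and the female KO libraries 20, 57 and 25 counts (0.453, 1.22 and 0.553 CPM). Male wild-type libraries had 173, 183 and 135 counts (2.92, 2.95 and 2.53 CPM) and male KO libraries 131, 155 and 161 counts (2.22, 2.39 and 3.07 CPM). All 6 female libraries were below all 6 male libraries, as for 16.9% of the genes tested. Il6 was lower in female than in male MEFs by 4.2-fold in the wild type (log2 fold change -2.07, SE 0.33, adjusted p = 0.000844) and by 3.43-fold in the KO (-1.78, SE 0.33, adjusted p = 0.00189), both in edgeR. When each library was left out in turn, the wild-type value ranged from -2.35 to -1.91 with adjusted p of 0.000157 to 0.00565. The KO value ranged from -2.34 to -1.52, and its call was lost without replicate 3 of the female KO (-1.60, adjusted p = 0.0102). It was also lost in a fit of only the 6 KO libraries (-1.77, adjusted p = 0.0119 in edgeR). The macrophage markers moved the other way, since 13 of 13 had a log2 fold change above 0 in female MEFs and 12 of 13 were called higher, in the wild type and in the KO, and the deeper sequencing of the male libraries and their higher fibroblast marker sum moved with Il6. The part of these differences in the Il6 result was not tested, and in bulk RNA fewer cells of a type and less RNA per cell cannot be told apart. Between KO and wild type, Il6 had a log2 fold change of 0.16 in female MEFs (SE 0.35) and of -0.13 in male MEFs (SE 0.30), and the female sign depended on replicate 2 of the KO, without which it was -0.40.

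Csf1 codes for the growth factor that macrophages need through Csf1r (ENSMUSG00000014599.4, chromosome 3 from 107543966 to 107563387, minus strand). It had 753, 644 and 586 CPM in wild-type female MEFs and 490, 810 and 644 CPM in the female KO libraries. In male MEFs it had 631, 603 and 964 CPM in the wild type and 638, 629 and 854 CPM in the KO. Replicate 3 was the highest library of both male groups, which are the 2 libraries that stood apart over all genes. The log2 fold changes between KO and wild type were -0.03 (SE 0.21) and -0.05 (SE 0.21), and those between female and male MEFs were -0.15 (SE 0.21) in the wild type and -0.13 (SE 0.21) in the KO.

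Ptgs2 (ENSMUSG00000032487.7, chromosome 1 from 151947254 to 151955140, plus strand) had a coefficient of variation of 6.66% to 8.73% within a group, and its highest value over the 4 groups was the lowest among the 10 genes. It had 1136, 1354 and 1241 CPM in wild-type female MEFs and 1124, 973 and 1043 CPM in the female KO libraries, so all KO libraries were below all wild-type libraries. In male MEFs the values were 1165, 1122 and 1318 CPM in the wild type and 1065, 1182 and 1047 CPM in the KO, which overlapped. The separation in female MEFs amounted to a log2 fold change of -0.25 (SE 0.08, unadjusted p = 0.0113, adjusted p = 0.543 in edgeR). In that comparison 19.1% of all genes tested did not overlap, and 8.2% did so with the KO below the wild type. The male log2 fold change was -0.13 (SE 0.08), and the average over the sexes was -0.19 (SE 0.06, unadjusted p = 0.0074, adjusted p = 0.737 in edgeR), which did not pass the correction. In the same female contrast the summed epithelial markers were also lower, with 25 to 69.1 CPM in the wild type and 20.4 to 22.3 CPM in the KO, without overlap, and their part in the values of Ptgs2 and Cxcl10 was not tested.

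The comparison of KO with wild type asked whether the expression of these genes differed between Firre KO and wild-type cells of each sex. A gene was called when its adjusted p was under 0.01 and its absolute log2 fold change over 1, the thresholds of the study's methods. Of the 9 members tested, 0 were called in female MEFs, 0 in male MEFs and 0 in the average of the sexes, where the background over all genes was 0.0065% in each of the 3 comparisons. The test of whether the KO effect differed by sex also gave 0 members, against a background of 0%. At an unadjusted p under 0.05, edgeR had 2 of 9 members in female MEFs (Cxcl10 and Ptgs2, background 7.55%), 0 in male MEFs (2.06%), 1 in the average (Ptgs2, 6.24%) and 0 for the difference (3.19%). DESeq2 called 0 members in all 4. The smallest adjusted p among the members was 0.543 in female and 1.00 in male MEFs. The median log2 fold change of the members was -0.09 in both sexes, compared with 0.00 over all genes tested, and 6 of 9 were below 0 in each. Within each sex the SE of the log2 fold change ranged from 0.08 for Ptgs2 to 1.15 for Cxcl5 in female MEFs. The SE of Cxcl5 in female MEFs was thus larger than the fold threshold of 1.

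**Figure D2:**
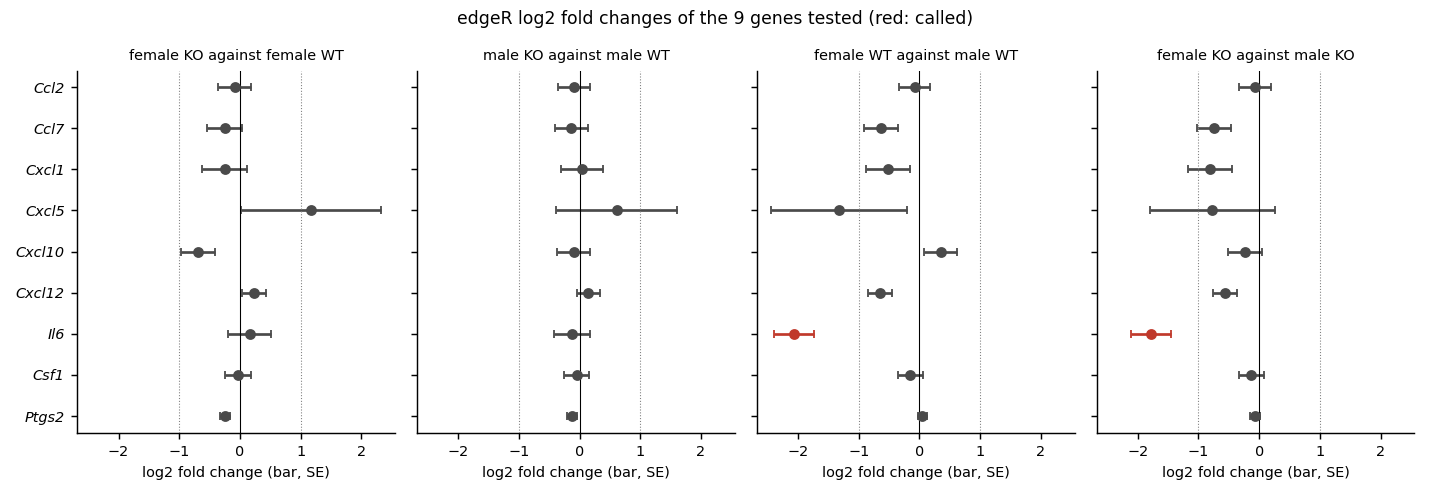
Log2 fold changes of the 9 tested genes (points, horizontal axis) with their standard errors (bars) in 4 comparisons, from edgeR. Dotted lines mark 1 and -1 and red marks a called gene. In both comparisons of KO with wild type the points lie between -0.69 (Cxcl10 in female MEFs) and 1.17 (Cxcl5 in female MEFs, with an SE of 1.15), and Il6 is the 1 called gene in each comparison of female with male MEFs, at -2.07 and -1.78.

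Female and male MEFs were compared within each genotype because both lines are in the table. These comparisons share their libraries with those of KO and wild type. In the wild type 1 of 9 members was called (Il6), where the background was 4.54% of all genes tested, or 1.55% for genes lower in female MEFs. In the KO again 1 of 9 was called (Il6), with a background of 3.89%, or 1.58% for lower genes, and 0.923% of all genes were called lower in both. The KO call of Il6 was lost with only the 6 KO libraries (-1.77, adjusted p = 0.0119 in edgeR) and without replicate 3 of the female KO (adjusted p = 0.0102). The groups did not overlap for 4 of 9 members in the wild type (Ccl7, Cxcl5, Cxcl12 and Il6), all lower in female MEFs, where 26.4% of all genes behaved in this way. In the KO this held for 1 of 9 (Il6), with a background of 25.7%. The median log2 fold change of the members was -0.52 in the wild type and -0.56 in the KO, compared with -0.01 and 0.00 over all genes tested. The 12 fibroblast markers had medians close to those of the members, -0.51 in the wild type and -0.45 in the KO. Below 0 were 7 of 9 members in the wild type and 9 of 9 in the KO. Ccl2, at -0.08 (SE 0.26) and -0.07 (SE 0.27), and its neighbour Ccl7, at -0.64 and -0.75, lay at different distances from 0. Cxcl5 was called between the KO groups when replicate 2 of the female KO was left out (-4.51, adjusted p = 0.00931), whereas with all libraries it had -0.77 (SE 1.03).

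Across the 6 libraries of each line, several of the inducible genes had positive correlations with Ccl2. On log2(CPM + 1), Pearson's r of Ccl2 with Ccl7 was 0.89 in female MEFs (Spearman's rho 0.94, exact permutation p of r 0.0181) and 0.91 in male MEFs (rho 0.89, p 0.00972). With Il6 it was 0.92 (rho 0.94, exact permutation p of r 0.00694) and 0.88 (rho 0.94, p 0.00972). None of these passed the correction over the 90 pairs of genes and lines computed, since the smallest adjusted p was 0.175. Without the 2 libraries farthest from the median of Ccl2, which were replicates 1 and 2 of the female KO and replicates 1 and 3 of the male KO, r with Ccl7 was 0.85 and 0.93, and r with Il6 was 0.76 and 0.69.

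Ccl2 and Cxcl1 had r of 0.82 in female MEFs (rho 0.89, exact permutation p of r 0.0528, adjusted 0.279) and 0.85 in male MEFs (rho 0.71, p 0.0306, adjusted 0.25). The male value rested on the 2 farthest libraries, since it was 0.23 without them, whereas the female value was then 0.87. On deviations from the group means, leaving out the 2 farthest libraries gave 0.40 in female and 0.09 in male MEFs for Ccl2 and Cxcl1, and 0.92 and 0.32 for Ccl2 and Il6. Ccl2 and Cxcl5 had r of 0.88 (rho 0.94, exact permutation p of r 0.00972, adjusted 0.175) and 0.80 (rho 0.66, p 0.0583, adjusted 0.292), which became 0.69 and 0.28 without the 2 libraries farthest from the median of Ccl2. On deviations from the group means, where the farthest libraries in female MEFs are replicate 1 of the wild type and replicate 2 of the KO, these became 1.00 and 0.67. Cxcl1 and Il6 had 0.80 (rho 0.94, exact permutation p of r 0.0403, adjusted 0.259) and 0.90 (rho 0.89, p 0.0167, adjusted 0.194), and 0.81 and 0.84 without the 2 libraries farthest from the median of Cxcl1 (0.48 and 0.90 on deviations from the group means). Cxcl10 and Ptgs2 had r of 0.96 in female MEFs (rho 0.94, exact permutation p of r 0.00278, adjusted 0.175) and -0.14 in male MEFs (rho -0.37, p 0.71, adjusted 0.889), which became 0.90 and -0.44 without the 2 libraries farthest from the median of Cxcl10.

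Over the 45 pairs of genes the median r was 0.17 in female and 0.05 in male MEFs, and 24 of 45 pairs were above 0 in each line. At an unadjusted p under 0.05 there were 9 pairs in female and 6 in male MEFs, and 0 pairs passed the correction in either. With 6 libraries the exact p of 1 pair alone cannot be small enough to pass the correction over this many pairs. The 3 abundant genes differed in their sign with Ccl2. For Csf1, r was 0.83 in female MEFs (rho 0.83, exact permutation p of r 0.0375, adjusted 0.259) and 0.52 in male MEFs (rho 0.14, p 0.3, adjusted 0.672), which became 0.45 and 0.27 without the 2 farthest libraries. For Cxcl12, r was -0.38 (rho -0.49, exact permutation p 0.469) and -0.67 (rho -0.60, p 0.181), and for Ptgs2 it was -0.28 (rho -0.14, p 0.569) and -0.07 (rho -0.26, p 0.906).

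**Figure D3:**
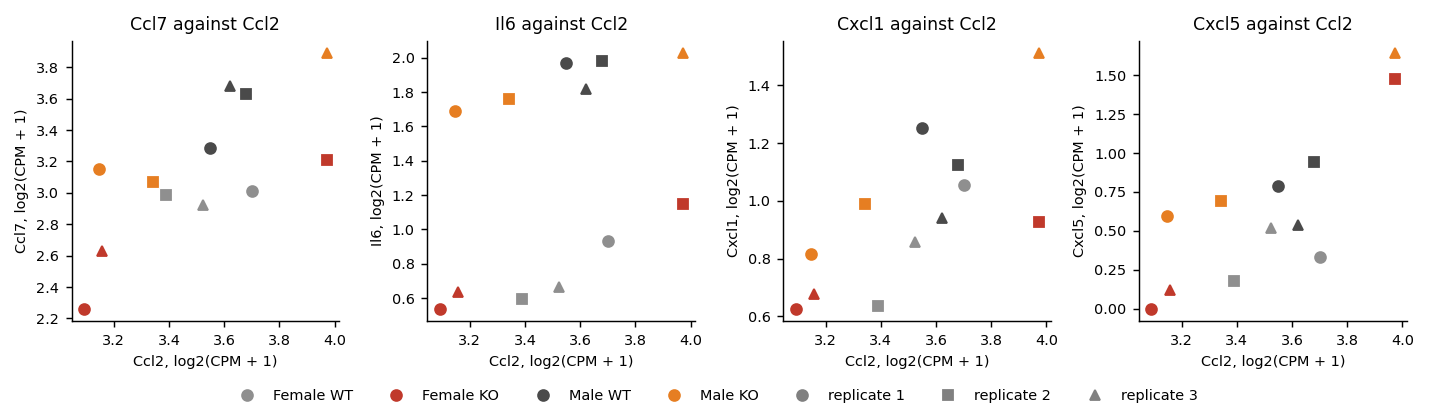
Ccl7, Il6, Cxcl1 and Cxcl5 (vertical axes) against Ccl2 (horizontal axes), all as log2(CPM + 1), in the 12 libraries, with colour for sex and genotype and marker shape for the replicate number. The 2 rightmost points of each panel are replicate 2 of the female KO and replicate 3 of the male KO, each with 14.7 CPM of Ccl2, and in the panel of Il6 the female points form a separate row below the male points.

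A pair of KO libraries lay at the upper end of this pattern. Replicate 2 of the female KO had the highest Ccl2, Ccl7, Cxcl5, Il6 and Csf1 of the 6 female libraries, and replicate 3 of the male KO had the highest Ccl2, Ccl7, Cxcl1, Cxcl5 and Il6 of the 6 male libraries. Other members went the opposite way, since Ptgs2 was the lowest of its sex in both (973 and 1047 CPM). Replicate 2 of the female KO also had the lowest Cxcl10 of the female libraries (0.365 CPM). The mean of the members' standardized deviations from their group means was 0.97 in the first and 0.67 in the second, and between -0.51 and 0.21 in the other libraries. The summed macrophage and leukocyte markers were 155 CPM in replicate 2 of the female KO, the highest of all libraries, and 70.9 and 50.6 CPM in the other female KO libraries. In replicate 3 of the male KO they were 17.8 CPM, between the 9.92 and 20.9 CPM of the other male KO libraries, while the epithelial markers summed to 15 CPM there (6.08 and 5.98 CPM in the other male KO libraries) and the fibroblast markers to 19400 CPM, the lowest of the male libraries. Replicate 3 of the male wild type had similar sums (13.5 and 19800 CPM) and a mean deviation of 0.07. Both libraries had the lowest sums of skeletal muscle markers (89.5 and 79.9 CPM) and of neural and Schwann markers (626 and 473 CPM) among the libraries of their sex. The part of these markers in the co-variation was not tested. Without both libraries, 0 members were called between KO and wild type in either sex, and the log2 fold changes of Cxcl1 in male MEFs (-0.41), of Cxcl5 in female (-2.58) and male MEFs (-0.32) and of Il6 in female MEFs (-0.40) had the opposite sign.

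**Figure D4:**
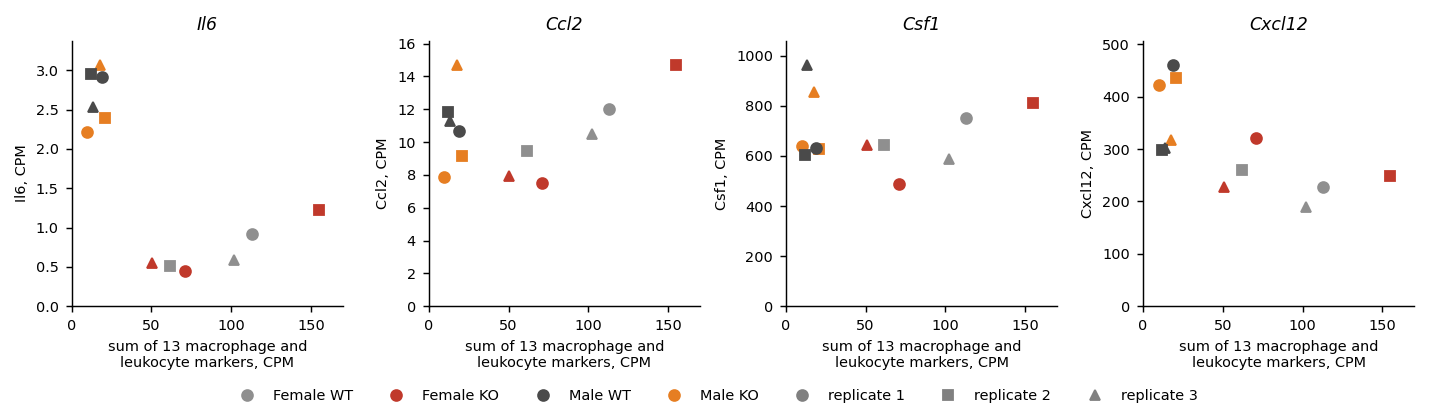
Il6, Ccl2, Csf1 and Cxcl12 in CPM (vertical axes, from 0) against the sum of 13 macrophage and leukocyte markers in CPM (horizontal axes, from 0) in the 12 libraries, with colour for sex and genotype and marker shape for the replicate number. The male libraries lie at 9.92 to 20.9 CPM of the markers and the female libraries at 50.6 to 155 CPM, with Il6 lower in the female libraries and Ccl2 at 7.52 to 14.7 CPM in the female and 7.85 to 14.7 CPM in the male libraries.

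The genes whose deviations from their group means were most like the mean of the members over the 12 libraries were Chtf18 (r 0.97), Cks1b (0.97), 2410016O06Rik (0.96), Iqgap3 (0.95) and Srsf2 (0.95), followed by Wdr90, Metap1d and Sephs1 (each 0.94). These values are the highest of all genes tested and are given as a description. Over the libraries Cks1b ranged from 67.4 to 86.3 CPM, Srsf2 from 240 to 315 CPM, Wdr90 from 7.23 to 14.6 CPM and Metap1d from 7.34 to 16.9 CPM.

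The wider chemokine family and the pathways around these genes were read from 12 lists. Their 145 tested genes held 0 calls between KO and wild type in female and in male MEFs in edgeR, with 14 and 5 genes at an unadjusted p under 0.05 (7.55% and 2.06% of all genes were) and a smallest adjusted p of 0.351 and 1.00. The 6 tested epithelial markers were all below 0 in female MEFs, with a median log2 fold change of -1.59 (smallest adjusted p = 0.497 in edgeR), and 5 of 6 were above 0 in male MEFs (median 0.49). Of the 145 genes DESeq2 called 1 in female MEFs, the proteoglycan gene Lum of the fibroblast marker list (7.56 ± 2.44 CPM in the wild type and 1.8 ± 0.789 CPM in the KO, SD, n = 3, adjusted p = 0.351 in edgeR), and 0 in male MEFs.

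Between the lines, the other chemokines that were called are known from blood cells. Of 27 other chemokine genes 26 were in the table and 11 were tested, and 3 were called higher in female MEFs in both genotypes: Pf4, a platelet and macrophage chemokine, and Ccl3 and Ccl6, which macrophages make. Of all genes tested, 2.98% were called higher in female MEFs in the wild type and 2.31% in the KO. In the wild type, Pf4 had 2.45 ± 0.964 CPM in female MEFs against 0.237 ± 0.104 CPM in male MEFs (SD, n = 3, log2 fold change 3.36, adjusted p = 0.00124 in edgeR). Ccl3 had 15 to 48 counts per female library and 0 to 4 per male library, and Ccl6 had 8 to 29 and 0 to 6 counts. Ccl3 and Ccl6 passed the filter through their counts in the female libraries, so their direction was set by the filter, and with at least 10 counts required in every library 0 of the other chemokines were called in either genotype in edgeR. These 3 genes moved with the macrophage markers, and the part of those markers in the difference was not tested. Without replicate 1 of the male KO, 1 of the 11 was called in the KO and 6 of the 13 macrophage markers, compared with 12 with all libraries. The call of Pf4 in the KO was lost without that library (adjusted p = 0.013 in edgeR), that of Ccl6 in the KO when any of several single libraries was left out (adjusted p up to 0.0288, without replicate 2 of the male KO), and that of Ccl3 in the wild type without replicate 1 or 2 of the male wild type (0.012 and 0.0112). Cxcl14 and Cx3cl1 were the 2 highest genes of the list. Cxcl14 overlapped between the lines, with 8.04 to 17.2 CPM in female and 8.62 to 21.2 CPM in male MEFs. Cx3cl1 overlapped in the wild type (log2 fold change -0.39, SE 0.22), whereas in the KO it had 7.34 to 10.5 CPM in female and 11.1 to 15.2 CPM in male MEFs, without overlap (-0.63, SE 0.22, adjusted p = 0.039 in edgeR), and was not called.

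Of 23 chemokine receptor genes 9 were tested. In the wild type 2 were called higher and 1 lower in female MEFs, where 2.98% and 1.55% of all genes were. In the KO 1 was called higher, where 2.31% of all genes were. Cx3cr1, a receptor of macrophages, was higher in female MEFs in both genotypes (log2 fold change 2.47 and 2.18, adjusted p = 0.00172 and 0.00337 in edgeR). The receptors of Cxcl12 differed in the wild type: Cxcr4 was higher in female MEFs (1.5 ± 0.391 against 0.502 ± 0.199 CPM, SD, n = 3, adjusted p = 0.00684) and the scavenger receptor Cxcr7 was lower (11.7 ± 2.13 against 26.1 ± 10.9 CPM, adjusted p = 0.00625), whereas neither was called in the KO (adjusted p = 0.0856 and 0.293), all in edgeR. For Cxcr7 the wild-type groups overlapped, with up to 14 CPM in female MEFs and from 13.6 CPM in male MEFs. The test of whether the contrast of the lines differed between the genotypes called 0 of all genes in edgeR (3.19% at an unadjusted p under 0.05) and 1 in DESeq2. When single libraries were left out, 1 to 3 receptors were called in the wild type and 0 to 4 in the KO. Cxcr4 and Cxcr7 lost their calls without most of the single libraries of the wild type (adjusted p in edgeR up to 0.0312 for Cxcr4, without replicate 1 of the male wild type, and up to 0.0295 for Cxcr7, without replicate 3 of the female wild type). Cx3cr1 lost its call in the KO without replicate 1 of the male KO or replicate 2 of the female KO (0.0134 and 0.012).

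Among 22 tested genes of interleukin, tumour necrosis factor and colony stimulating factor signalling, 4 were called higher and 2 lower in female wild-type MEFs, where 4.54% of all genes were called and 1.55% called lower. Higher were Csf1r, the receptor of Csf1 and itself a macrophage marker (14.7 ± 4.51 against 2.71 ± 0.725 CPM, SD, n = 3), Csf3, Il7 (named after its values were seen) and Tnf, the last with 3 to 17 counts per female library and 0 to 2 per male library, so that it passed the filter through the female libraries alone. Lower were Osmr, the oncostatin M receptor (29.4 ± 4.26 against 66 ± 8.49 CPM, adjusted p = 0.000884 in edgeR), and Tnfrsf1b. In the KO, Csf1r and Tnf were called higher and Osmr lower, and Tnfrsf1b was lower without overlap but under the fold limit (log2 fold change -0.89, SE 0.10, adjusted p = 7.88e-05 in edgeR). When single libraries were left out, 3 to 5 genes were called in the wild type and 2 to 4 in the KO. The calls of Csf3 and Tnf did not survive the loss of single libraries (adjusted p in edgeR up to 0.0331 for Csf3, without replicate 2 of the female wild type, and up to 0.0314 for Tnf in the wild type, without replicate 1 of the female wild type), whereas Csf1r and Osmr kept theirs in each of these fits. Il6st, the signal-transducing receptor of Il6, had 165 to 197 CPM in female and 192 to 228 CPM in male MEFs. It overlapped between the lines in the wild type (log2 fold change -0.07, SE 0.06), whereas in the KO it was lower in female MEFs without overlap (-0.31, SE 0.06, adjusted p = 0.00185 in edgeR), under the fold limit of a call.

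The prostaglandin pathway had 13 tested genes besides Ptgs2. In the wild type 1 was called higher and 1 lower in female MEFs, where 2.98% and 1.55% of all genes were. In wild-type MEFs Hpgd, which degrades prostaglandins, was called higher in female MEFs (1.19 ± 0.21 against 0.339 ± 0.0919 CPM, SD, n = 3) and Ptgs1, the constitutive relative of Ptgs2, was called lower (16.2 ± 2.17 against 32.6 ± 6.41 CPM, adjusted p = 0.00254 in edgeR). In the KO 0 were called in edgeR, with 5 genes at an adjusted p under 0.05, a share near that of all genes (38.7%). Hpgd lost its call whichever of the 6 wild-type libraries was left out (adjusted p in edgeR of 0.0126 to 0.0258), and Ptgs1 lay at the fold limit (log2 fold change -1.01, and -0.84 without replicate 2 of the male wild type). Of 24 tested genes of the NF-kB pathway 1 was called in each genotype, a share near the background of 4.54% in the wild type and 3.89% in the KO. It was Nfkbiz, a nuclear IkB protein required for induction of Il6, which was lower in female MEFs. It had 22.6 to 28.1 CPM in the 6 female and 56 to 74.9 CPM in the 6 male libraries, without overlap, with log2 fold changes of -1.30 (adjusted p = 2.19e-05) and -1.38 (adjusted p = 1.63e-05) in edgeR, and the call held with each library left out. Of 15 tested interferon-stimulated genes 0 were called between the lines in edgeR, with 2 in the wild type and 4 in the KO at an adjusted p under 0.05, where 38.7% of all genes were in each comparison.

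The markers of other cell types also differed between the lines. Of the 13 macrophage and leukocyte markers 12 were called higher in female MEFs in each genotype, with a median log2 fold change of 2.70 in the wild type and 2.65 in the KO. When single libraries were left out, 8 to 12 were called in the wild type, fewest without replicate 2 of the male wild type, and 6 to 12 in the KO, fewest without replicate 1 of the male KO, and 7 were called with only the 6 KO libraries. An example was Lyz2 (28.1 ± 7.77 against 2.83 ± 0.61 CPM in the wild type, SD, n = 3). Epithelial markers were called higher in female MEFs for 4 of 6 tested genes in the wild type and 1 in the KO, skeletal muscle markers for 2 and 5 of 8, and neural and Schwann markers for 2 and 3 of 8, where 2.98% of all genes were called higher in the wild type and 2.31% in the KO. Of these, Krt5, Cdh1 and Myog passed the filter on low counts through the female libraries, so their direction was set by the filter. In the male wild type they had 1 to 9, 4 to 7 and 5 to 10 counts, and Myog had 0 to 16 in the male KO. Endothelial markers had 0 of 5 called in each genotype in edgeR. Of the 12 fibroblast markers, Lum was called higher and S100a4 lower in female wild-type MEFs. When single libraries were left out, the epithelial counts became 1 to 5 in the wild type and 0 to 1 in the KO, those of muscle 0 to 2 and 0 to 5, and those of neural markers 0 to 3 and 0 to 4. The part of these other cells in the differences between the lines was not tested.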

How the data were processed

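The 12 RNA-seq libraries of MEFs were analysed. Per the study's methods, total RNA was made into TruSeq (version 2) libraries. The authors used Bowtie 2 for mapping and RSEM 1.2.29 for quantification, and the deposited values are unscaled expected counts for each gene. The submitters' processing notes name mm9, and all 37310 gene identifiers occur in the annotation of that build, from which coordinates and exon lengths were taken.

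After rounding, these counts were fitted with the quasi-likelihood test of edgeR 4.0.16 under R 4.3.3. Genes were filtered with filterByExpr, libraries were scaled by TMM, and each sex and genotype had its own mean, which left 8 residual degrees of freedom (common biological coefficient of variation 0.114). P-values were adjusted over 15387 genes by Benjamini-Hochberg. All 12 libraries entered 1 fit. CPM use TMM-scaled library sizes. Correlations were taken on log2(CPM + 1) within the 6 libraries of each line, with exact permutation p-values (SciPy 1.17.1). Plots were made in matplotlib 3.10.9. The scripts were tested on simulated data.

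The members and gene lists were chosen with earlier results of these data known. The genes named from a list are those called in a contrast, at most the 3 largest rises and falls, and its 2 most abundant genes. The alternatives were DESeq2 1.42.0, other scaling and filters, the replicate number as a block, a fit restricted to the 6 libraries of a contrast, a threshold of 0.05 on the adjusted p without fold limit, a pseudocount of 0.1, and each library left out. The Hi-C and ChIP-seq samples were not analysed here. Promoter sequences are from RefSeq (GRCm38.p6).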

Additional observations from a re-analysis of the deposited data

How the results depend on the processing

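Between KO and wild type, 0 members were called in either sex, in the average and for the difference between the sexes under every alternative run. Of 752 member values under the alternatives, 720 kept direction and side of the threshold, 29 changed sign, 2 lost and 1 gained a call. The median of all genes moved by at most 0.03 on the log2 scale with another scaling. The filter on low counts kept Ccl5, with 5 to 16 counts per library, out of the test across genes.

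Between female and male MEFs, 2 members (Cxcl12 and Il6) passed an adjusted p under 0.05 without fold limit in the wild type and 2 in the KO, as did 38.7% of all genes in each. With only the 6 KO libraries 0 members were called between the KO groups, where Il6 had -1.77 and an adjusted p of 0.0119 in edgeR. When each library was left out, 0 to 2 members were called there, 0 without replicate 3 and 2 without replicate 2 of the female KO. The replicate numbers were not treated as a pairing, since the labels give them no shared origin. The correlations of same-numbered wild-type and KO libraries were -0.16, -0.12 and -0.15 in female MEFs. In male MEFs they were 0.10, 0.22 and 0.33, compared with -0.29 to 0.14 for differently numbered libraries, and replicate 1 of the wild type was closest to replicate 2 of the KO (0.14). With the replicate block 0 members were called between KO and wild type, 1 between the wild types and 1 between the KO groups.

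The values that changed sign did so mostly when 1 library was left out, and the cause was not tested beyond that. In the comparison of KO with wild type in female MEFs the log2 fold change then ranged from -0.47 to 0.09 for Ccl2, from -2.58 to 1.74 for Cxcl5, from -0.40 to 0.44 for Il6 and from -0.22 to 0.14 for Csf1. In male MEFs it ranged from -0.40 to 0.08 for Ccl2, from -0.48 to 0.03 for Ccl7, from -0.41 to 0.28 for Cxcl1, from -0.32 to 0.95 for Cxcl5, from -0.20 to 0.10 for Cxcl10 and from -0.21 to 0.20 for Csf1. Between female and male wild-type MEFs it ranged from -0.27 to 0.10 for Csf1 and from -0.02 to 0.12 for Ptgs2. Between the KO groups it ranged from -0.45 to 0.24 for Ccl2, from -4.51 to 0.16 for Cxcl5 and from -0.32 to 0.04 for Csf1. Without replicate 3 of the male KO and replicate 2 of the female KO, an alternative chosen after seeing the data, Cxcl1 had -0.41 in male MEFs, Cxcl5 -2.58 in female and -0.32 in male MEFs and Il6 -0.40 in female MEFs. The median r over pairs in male MEFs was -0.04 on deviations from group means.

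Over all genes tested, DESeq2 called 4 genes in female and 2 in male MEFs between KO and wild type, 3 in the average and 1 for the difference between the sexes, compared with 1, 1, 1 and 0 in edgeR. With the replicate block, with only the 6 libraries compared or with at least 10 counts in every library edgeR called 0 in either sex. Between the lines 698 genes were called in the wild type and 599 in the KO. These became 5953 and 5949 at an adjusted p under 0.05 without fold limit. Leaving out single libraries gave 432 to 763 in the wild type, lowest without replicate 1 of the male wild type, and 329 to 621 in the KO, lowest without replicate 1 of the male KO (342 without its replicate 2 and 376 without replicate 1 of the female KO). With only the 6 KO libraries 370 were called.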
